A study of Mus musculus with 5 samples.

Results

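NMDA receptors are ligand-gated cation channels that open when glutamate and a co-agonist, glycine or D-serine, are bound while the membrane is depolarized. Each receptor needs the GluN1 subunit, which binds the co-agonist and is encoded by Grin1, together with glutamate-binding GluN2 subunits (Grin2a to Grin2d) or glycine-binding GluN3 subunits (Grin3a and Grin3b). In the adult hippocampus GluN2A and GluN2B are the main partners of GluN1, and calcium entering through these receptors is a trigger of synaptic plasticity and of activity-dependent transcription.

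The 7 genes of this family were taken by their symbols from the 55385 genes counted in each hippocampal library. Total RNA came from hippocampi of 3 months old male C57/bl6 mice. An untreated control library was set beside libraries of mice killed 1, 4 or 8 h after the onset of seizures, which had been provoked by an intraperitoneal dose of 20 mg/kg kainic acid, an agonist of kainate and AMPA receptors. There were 5 libraries in all, with 2 at 4 h, called library 1 and library 2, and 1 in each other group. Whether a library stands for a single mouse is not given in the sources used here, so the spread of the 4 h pair, the only one between replicates, may be technical in part, and the control is shared by all comparisons with it. Depth, as the total of all gene counts, was 19100374 reads for the control library, 17744508 for 1 h, 18250114 and 19109204 for libraries 1 and 2 at 4 h and 16612225 for 8 h.

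The labels were first set against 6 genes with a known response to activity. Fos, a transcription factor gene induced by neuronal activity, had 10.8 CPM (counts scaled by the TMM-normalised library total) in the control, 998 at 1 h, 519 and 70.3 in libraries 1 and 2 at 4 h and 17.2 at 8 h. Npas4, a neuronal activity-dependent transcription factor gene, had 3.91, 694, 129.9, 4.91 and 5.13 CPM in the same order. Nr4a1 had 33.8, 605, 163, 34.6 and 21.5 CPM and Egr1 29.1, 215, 99.0, 30.9 and 19.0. These 4 genes were highest at 1 h and far higher in library 1 than in library 2 at 4 h, where all but Fos were close to the control. Arc and Bdnf, in contrast, were highest in library 1 at 4 h and still well above the control in library 2. Arc had 147, 2019.8, 2590.2, 927 and 151 CPM, and Bdnf 43.6, 208, 753, 316 and 96.6.

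Markers of hippocampal cells were present in every library. The 4 markers of excitatory neurons (Slc17a7, Neurod2, Nrgn and Camk2a) summed to 2304 CPM in the control, 2280.1 at 1 h, 1906 and 2140.0 in the 4 h libraries and 2155 at 8 h. Camk2a and Slc17a7 carry most of this sum, and it does not show the spread of its smaller members. Neurod2 had 71.0, 67.0, 43.4, 76.3 and 139.5 CPM in the same order. The 3 markers of CA1 pyramidal cells, led by Fibcd1, summed to 237, 216, 164, 198 and 196 CPM, with the lowest value in library 1 at 4 h. The 4 markers of CA3 pyramidal cells summed to 139.8, 139.4, 273, 165 and 176 CPM, highest in that library, mostly through Nectin3 with 48.9, 44.1, 194, 67.9 and 41.2. Grik4 and Iyd, of the same list, were lowest in that library, with 30.4 and 2.79 CPM against 46.3 and 3.31 in the control. The CA3 sum thus joins markers that went opposite ways. The 5 dentate granule cell markers did not move as one. Prox1 had 59.9, 67.1, 171, 119.5 and 77.0 CPM in the same order and was highest at 4 h. Dsp, the most abundant of them in the control, had 72.1, 66.0, 4.33, 13.6 and 68.4 CPM, and C1ql2 had 584, 491, 186, 221 and 1019 counts. Both were lowest in the 4 h libraries, so the sum of all 5, at 225, 229, 295, 207 and 259.8 CPM, joins markers that went opposite ways. The 3 cerebellar granule cell markers were low, with a sum between 1.03 and 2.27 CPM. Of these, 2 were above the floor of 3 counts in all libraries, and Fat2, the most abundant, had 25, 25, 13, 15 and 10 counts from the control to 8 h.

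Markers of choroid plexus, thalamus and glia also varied between libraries. The 4 choroid plexus markers (Ttr, Folr1, Kl and Clic6) summed to 3952 CPM in the control, 1670.4 at 1 h, 28.8 and 4229 in libraries 1 and 2 at 4 h and 3065 at 8 h, most of it Ttr in each library. The 3 thalamic markers, led by Slc17a6, summed to 38.8, 46.5, 119.6, 50.0 and 33.8 CPM. The 5 oligodendrocyte markers, led by Mbp, summed to 2816, 3442, 3246, 4151 and 2564 CPM, and the 5 microglial markers, led by Csf1r, to 188, 194, 165, 169 and 178. The microglial sum also joins markers that went opposite ways, as P2ry12 had 31.8, 29.7, 13.9, 17.7 and 20.7 CPM and C1qa 23.1, 27.8, 32.4, 29.1 and 28.8. Library 1 at 4 h was therefore the lowest in choroid plexus and the highest in thalamic markers. The part of these differences in the values of the NMDA receptor genes was not tested. A change in the share of a cell type and a change in RNA per cell cannot be told apart in such samples.

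Across the family no gene passed the test at any time point. Of the 7 genes, 6 had enough counts to be tested, and Grin3b did not. In edgeR (quasi-likelihood test, Benjamini-Hochberg adjustment over all tested genes), 0 of these 6 were called at 1 h, 4 h and 8 h against the control, and 0 at 8 h against 4 h. The background was equally low, since 0% of 19768 tested genes were called at 1 h, 0.00506% (1 gene) at 4 h, 0% at 8 h and 0% at 8 h against 4 h. At an unadjusted p under 0.05 in the edgeR test there were 478, 2291, 892 and 1726 genes in these comparisons. As shares of all tested genes these were 2.42%, 11.6%, 4.51% and 8.73%. Of the 6 tested members, 0, 0, 0 and 2 were among them. DESeq2 called 56, 238, 33 and 129 genes and limma-voom 0 in each, none of them a family member. A single residual degree of freedom stood behind this test, and a missed threshold does not show that a gene was unaffected.

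A count past a fixed fold was used as a description without a test. At 1 h, 0 of the 6 genes were at least 1.5-fold higher than the control and 0 were at least as far below it, against 10.6% and 8.82% of all tested genes. At 4 h, with both libraries required to pass, 0 were higher and 0 lower, against 9.8% and 6.23%. At 8 h, 0 were higher and 1, Grin2d, was lower, against 13.9% and 8.7%. Set beside a background of about that size, counts of 0 or 1 among so few genes do not set the family apart. At 1, 4 and 8 h the 6 genes had median log2 fold changes of 0.04, 0.00 and -0.04, beside -0.01, 0.01 and 0.01 over all tested genes.

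**Figure D1:**
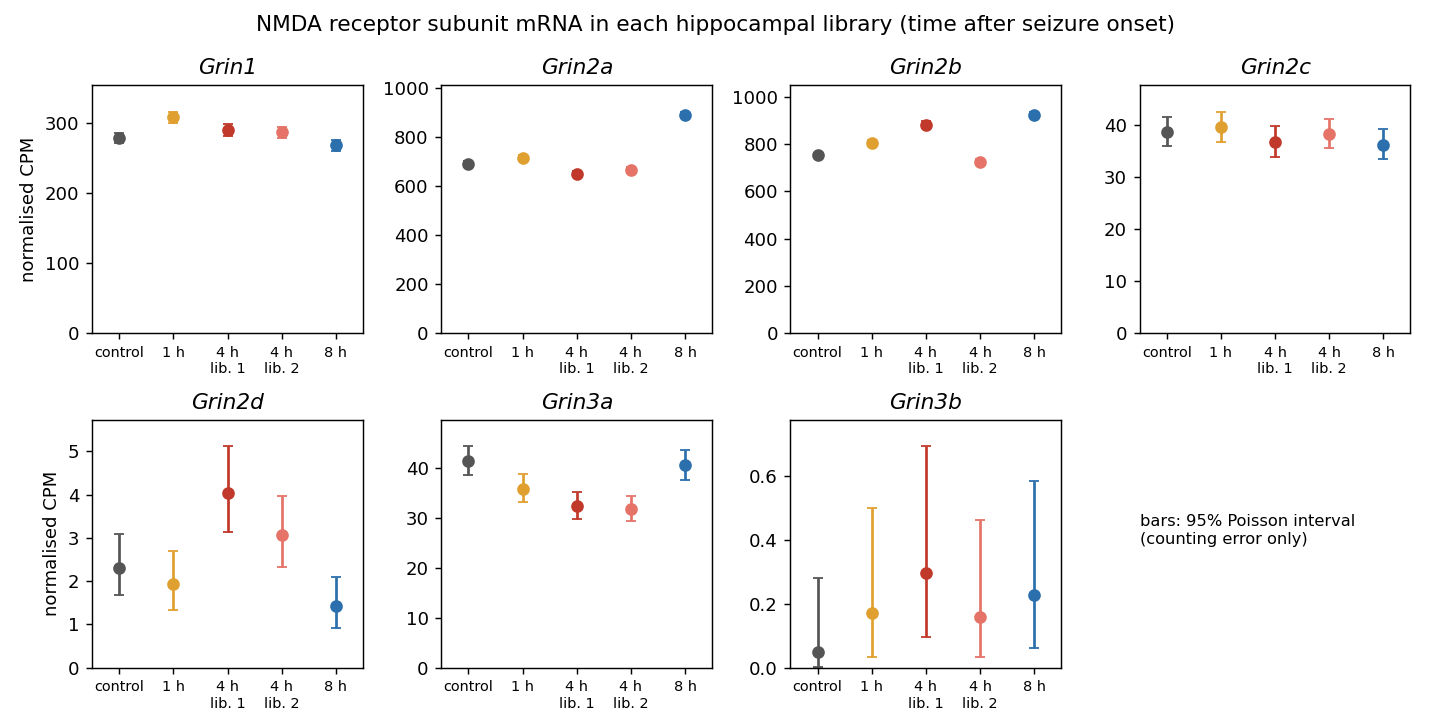
Normalised CPM (vertical axes, starting at 0) of each NMDA receptor gene in the 5 libraries, with exact Poisson 95% intervals that cover counting error only. Grin2c keeps close to its control value, and Grin1 is highest at 1 h (308 CPM, with an interval above that of the control). Grin2a stands highest at 8 h (889 CPM), Grin2b has unlike values in the 4 h libraries, and Grin3a is lowest at 4 h.

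Grin1 encodes the subunit that every NMDA receptor contains. It lies on the minus strand of chromosome 2 (GRCm38, chr2:25291181-25319187). Its counts were 5552 in the control, 5414 at 1 h, 4881 and 5423 in libraries 1 and 2 at 4 h and 4698 at 8 h, which gave 279, 308, 289.6, 286 and 268 CPM. The libraries thus spanned a ratio of 1.15 from the lowest, at 8 h, to the highest, at 1 h, and the 4 h pair lay between the control and the 1 h library. For comparison, the median ratio of the highest to the lowest library was 1.67 over all tested genes, and 4.89% of them had a smaller ratio than Grin1. Counting error widens this ratio at low counts, and the comparison was not matched for count level. At 4 h the log2 fold change was 0.05 (SE 0.15, 95% interval -0.34 to 0.44), and with scaling by library size alone it was -0.08. The interval corresponds to a ratio between 0.789 and 1.35. The interval at 8 h ran from -0.51 to 0.39 around a log2 fold change of -0.06 (SE 0.18). For the 1 h library the log2 fold change was 0.14 (SE 0.18). Its 95% Poisson interval (300 to 316 CPM), which covers counting error only, lay above that of the control (271 to 286).

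As Grin1 encodes the subunit shared by all NMDA receptors, the 250 bases before its RefSeq start are shown (GRCm38.p6, chr2:25319188-25319437, minus strand), with capitals marking matches to any of 4 motifs.
Grin1: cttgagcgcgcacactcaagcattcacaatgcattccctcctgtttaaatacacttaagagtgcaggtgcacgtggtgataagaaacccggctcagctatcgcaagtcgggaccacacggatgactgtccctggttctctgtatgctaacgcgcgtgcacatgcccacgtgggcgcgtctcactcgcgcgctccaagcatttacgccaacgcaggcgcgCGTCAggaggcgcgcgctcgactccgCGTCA
The motifs were searched on both strands from 250 bases before to 50 bases after the start: GCGNGGGCG for EGR factors, TGANTCA for AP-1, TGACGTCA for the cyclic AMP response element (CRE) and TGACG for its shorter form, which is contained in the full element. The capitals are a pair of matches to TGACG on the opposite strand, whose first bases lie 31 and 5 bases before the start. A further match, GCGGGGGCG for EGR factors, began at base 5 after the start, and neither AP-1 nor the full CRE was matched. Of 32851 promoter windows in the RefSeq table, 5.55% held the EGR motif, 7.81% AP-1, 1.79% the full CRE and 20.8% TGACG. Windows were also given for Grin2c, Grin2d and Grin3b, so 4 of the 7 genes had one. Grin2c and Grin2d matched none of these letters, and Grin3b had a single AP-1 match, TGATTCA, starting 124 bases before its start. The Grin2d window (chr7:45866682-45866931) lies inside the annotated span of the gene, so it does not describe the outermost 5' end. A match to letters is a description of the window and not a measured site.

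Grin2a encodes GluN2A, the glutamate-binding subunit typical of mature synapses. Its gene is on the minus strand of chromosome 16 (chr16:9567898-9995560). It had 688 CPM in the control, 713 at 1 h, 650.1 and 664 in libraries 1 and 2 at 4 h and 889 at 8 h. The 8 h library stood above all others, while the 4 h pair was close together and slightly below the control and the 1 h library. Set against the control, the 8 h library gave a log2 fold change of 0.37 (SE 0.18, 95% interval -0.09 to 0.83), with a Benjamini-Hochberg adjusted p of 1.00 in the edgeR quasi-likelihood test. Against the 4 h pair it was 0.44 (SE 0.16), with an interval of 0.04 to 0.83 before adjustment and an adjusted p of 0.547 in the same edgeR test. The 8 h value rests on 1 library, so its difference has no replicate check at 8 h.

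Grin2b encodes GluN2B, which predominates early in development and remains abundant in the adult hippocampus, where it binds the kinase CaMKII. The gene lies on the minus strand of chromosome 6 (chr6:135713233-136173511). It had 753 CPM in the control, 804 at 1 h, 882 and 725 in libraries 1 and 2 at 4 h and 924 at 8 h. The 4 h libraries lay on either side of the control, and their ratio of 1.22 was nearly as large as the ratio of 1.28 between the highest and the lowest of all libraries. Compared with the control, the 4 h pair gave a log2 fold change of 0.09 (SE 0.19), which was -0.05 without library 1, 0.23 without library 2 and -0.03 with scaling by library size alone. At 8 h it was 0.30 (SE 0.22, 95% interval -0.26 to 0.85).

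Grin2c encodes GluN2C, best known from cerebellar granule cells and also found in astrocytes. It is located on the minus strand of chromosome 11 (chr11:115249169-115267243). It had 38.8 CPM in the control, 39.6 at 1 h, 36.8 and 38.3 in libraries 1 and 2 at 4 h and 36.3 at 8 h. All libraries overlapped within their counting intervals, and the ratio of the highest to the lowest, 1.09, was smaller than that of all but 1.21% of tested genes. That comparison, too, was not matched for count level. Its log2 fold changes were 0.03 at 1 h (-0.04 with scaling by library size alone), -0.05 at 4 h and -0.10 at 8 h, with SEs between 0.20 and 0.23. The astrocyte markers, 6 genes led by Slc1a2, summed to 3727 CPM in the control, 3917 at 1 h, 4696 and 4305 in the 4 h libraries and 4089.8 at 8 h. Gfap, which is raised in reactive astrocytes, went from 221 CPM in the control to 587 at 8 h, and Gja1 from 194 to 98.5. Without Gfap the sum was 3507, 3645, 4101, 3795 and 3503 CPM, above the control at 1 h and 4 h but not at 8 h. The gap between the sums with and without Gfap was already wider in both 4 h libraries than in the control. The part of these markers in the Grin2c values was not tested.

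Grin2d encodes GluN2D, which in the adult hippocampus is found mainly in interneurons. It is located on the minus strand of chromosome 7 (chr7:45831883-45878378), and 9.66% of its exon length lies under exons of the opposite strand gene Gm45441. It had 46 counts in the control, 34 at 1 h, 68 and 58 in libraries 1 and 2 at 4 h and 25 at 8 h, or 2.31, 1.93, 4.03, 3.06 and 1.42 CPM. Both 4 h libraries were above all others and the 8 h library was the lowest, but the 95% Poisson interval of the control (1.69 to 3.08 CPM) overlapped that of library 2 (2.33 to 3.96) and just missed that of library 1 (3.13 to 5.11). The interval of the 8 h library (0.922 to 2.10 CPM) also overlapped that of the control. The ratio of the highest to the lowest library, 2.83, was the widest among the tested members, and 81.3% of all tested genes had a smaller one. Grin2d also had the fewest counts of the tested members, and counting error widens such a ratio at low counts. At 4 h the log2 fold change was 0.60 (SE 0.47, 95% interval -0.57 to 1.81), 0.39 without library 1 and 0.78 without library 2. At 8 h it was -0.66 (SE 0.56) against the control and -1.25 (SE 0.50) against 4 h, where the Benjamini-Hochberg adjusted p of the edgeR quasi-likelihood test was 0.560. Beside it, the 7 interneuron markers summed to 521 CPM in the control, 577 at 1 h, 851 and 704 in the 4 h libraries and 524 at 8 h, with Gad1 as the most abundant at 256, 317, 515, 379 and 274. The sum was highest in the 4 h libraries mainly through Gad1 and Gad2, the latter with 102, 104, 150.3, 155 and 110.4 CPM. In each of the 4 h libraries 5 of the 7 markers were above the control. Slc32a1, Lhx6 and Vip were above it in only 1 of them. Slc32a1 had 31.5 CPM in the control and 28.1 and 39.2 at 4 h. Lhx6 had 10.2 and then 8.36 and 10.9, and Vip 17.2 and then 21.7 and 17.1. The part of these markers in the Grin2d values was not tested.

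Grin3a encodes GluN3A, a glycine-binding subunit that lowers the calcium permeability of the channel and is most abundant in the postnatal brain. It lies on the minus strand of chromosome 4 (chr4:49661611-49845744). It had 41.5 CPM in the control, 35.9 at 1 h, 32.5 and 31.9 in libraries 1 and 2 at 4 h and 40.6 at 8 h. The 4 h pair was close together and below the control, and the 8 h library was near the control again. For the 4 h pair the log2 fold change came to -0.37 (SE 0.20, 95% interval -0.86 to 0.12, Benjamini-Hochberg adjusted p = 0.525 in edgeR's quasi-likelihood test). Without library 1 it was -0.38 and without library 2 -0.35. At 8 h it was -0.03 (SE 0.23), and between 8 h and 4 h it was 0.33 (SE 0.20, interval -0.16 to 0.83).

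Grin3b encodes GluN3B, which is best known from motor neurons. It is located on the plus strand of chromosome 10 (chr10:79970715-79977190), and 32.1% of its exon length lies under exons of Tmem259 on the opposite strand. Its counts were 1 in the control, 3 at 1 h, 5 and 3 in libraries 1 and 2 at 4 h and 4 at 8 h. Most of these are at or near the floor of 3 counts, and no difference was detectable at this depth.

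**Figure D2:**
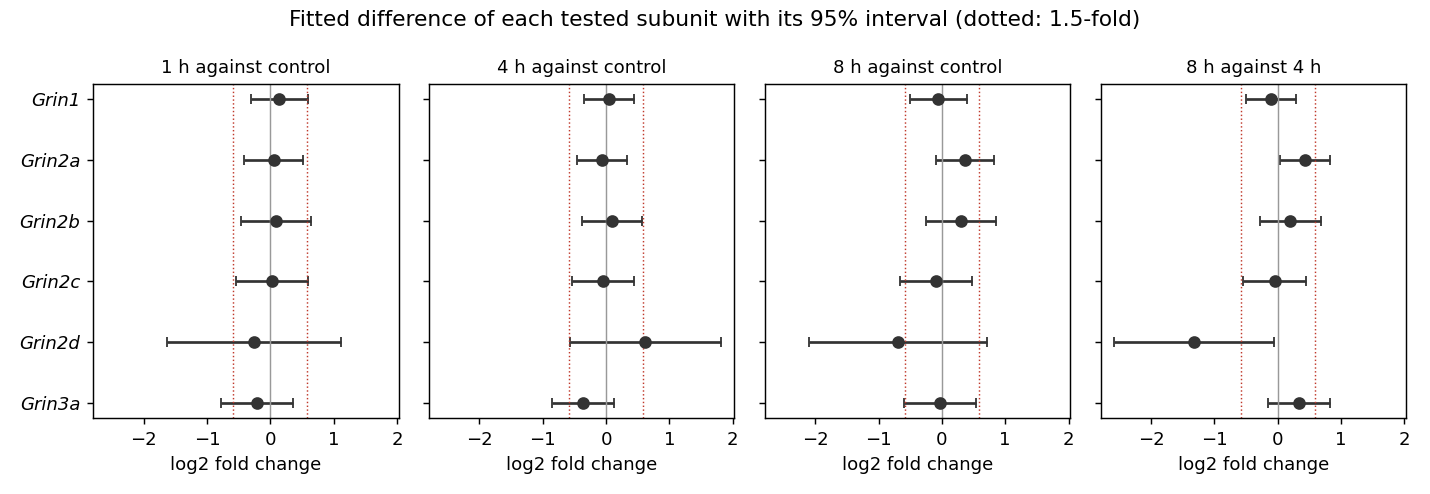
Fitted log2 fold changes (horizontal axes) of the 6 tested NMDA receptor genes in the 4 comparisons, with 95% intervals from the shared edgeR fit before adjustment and dotted lines at 1.5-fold. Nearly all intervals include 0; Grin2a and Grin2d at 8 h against 4 h do not, and neither passed the adjusted threshold.

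The make-up of the family was then compared between libraries. The summed counts of the 7 genes took 0.188% of the gene counts in the control, 0.189% at 1 h, 0.175% and 0.173% in libraries 1 and 2 at 4 h and 0.228% at 8 h. In normalised CPM the sums were 1802, 1903, 1895, 1749 and 2159. The 8 h library was the highest on both scales, while the place of library 1 at 4 h, below the control as a share and above it in normalised CPM, depended on the scale. The share of Grin2a among Grin2a and Grin2b counts does not depend on library scaling. It was 47.8% in the control (exact binomial 95% interval 47.2% to 48.3%), 47.0% at 1 h (46.4% to 47.6%) and 49.0% at 8 h (48.5% to 49.6%). At 4 h it was 42.4% in library 1 (41.8% to 43.0%) and 47.8% in library 2 (47.2% to 48.4%). By these intervals, which cover counting error only, library 1 at 4 h and the 8 h library were each separate from all others. The gap between the 4 h replicates was wider than that between the control and the 1 h or the 8 h library, and narrower than that between library 1 at 4 h and the 8 h library. The differences of this share between time points were not tested.

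Levels of different genes can be compared only per length, and here the order depended on which length was taken. In CPM per kilobase of all annotated exons, Grin2a had a median of 38.4 over the 5 libraries (36.3 to 49.6), Grin2b 32.4 (29.2 to 37.2) and Grin1 29.5 (27.6 to 31.7). Grin2a was above Grin2b in 5 of 5 libraries, though their ranges overlapped. Grin2b was above Grin1 in 4 of 5, also with overlapping ranges, so the order of Grin2b and Grin1 was within their spread. Further down came Grin2c with 7.60 (7.20 to 7.86), Grin3a with 2.93 (2.60 to 3.38), Grin2d with 0.347 (0.214 to 0.606) and Grin3b with 0.0517 (0.0152 to 0.0900), without overlap of their ranges. Per kilobase of the longest transcript, Grin1 came first with 67.0 (62.6 to 72.0), before Grin2a with 47.0 and Grin2b with 33.4. The exons of Grin1 join to 9700 bases while its longest transcript has 4276, a larger gap than for Grin2a (17933 and 14634) or Grin2b (24842 and 24060). The order of the other 4 genes was the same on both lengths.

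The ratio of Grin1 to the summed GluN2 genes, on the exon scale, was 0.374 in the control, 0.395 at 1 h, 0.375 and 0.398 in libraries 1 and 2 at 4 h and 0.293 at 8 h. With the longest transcripts the same ratios were 0.752, 0.794, 0.758, 0.798 and 0.586. On either length the 8 h library was the lowest and the others lay close together, a difference that rests on 1 library at 8 h and was not tested. GluN3 genes made up between 2.44% and 3.12% of the family per kilobase of exon, with the highest share in the control. The antisense gene Grin1os, whose exons cover 13.5% of the exon length of Grin1, had 1, 1, 2, 5 and 3 counts, far fewer than on Grin1.

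**Figure D3:**
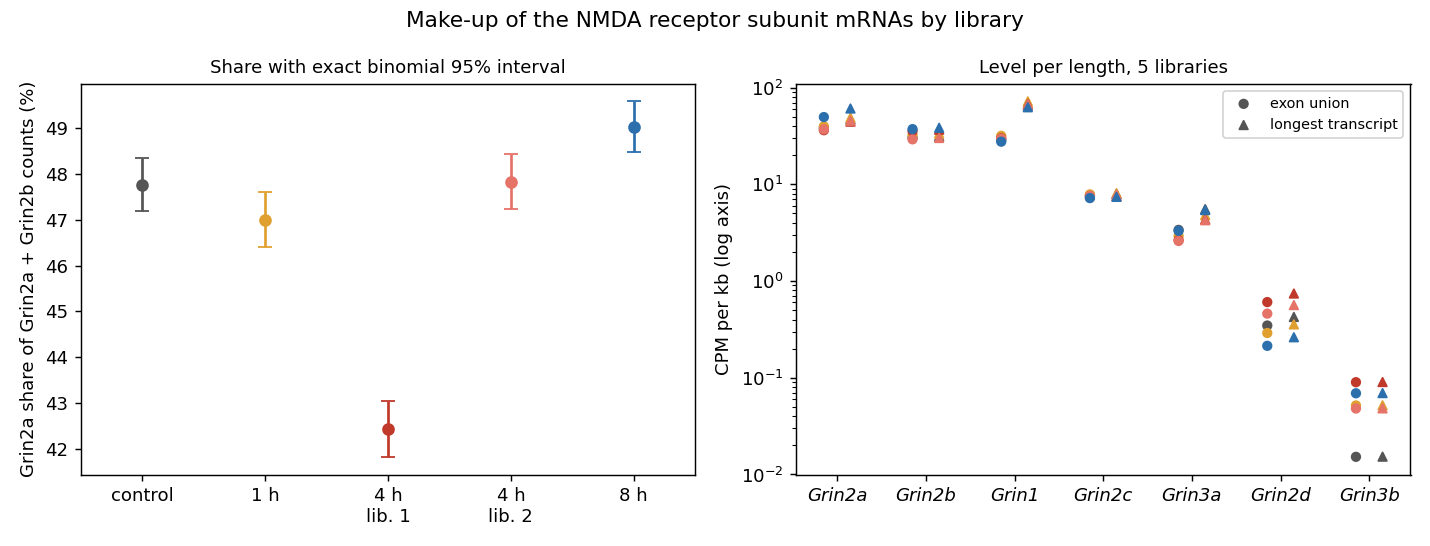
Left, the share of Grin2a among Grin2a and Grin2b counts in percent by library with exact binomial 95% intervals (axis not starting at 0), where library 1 at 4 h (42.4%) lies lowest and the 8 h library (49.0%) highest. Right, CPM per kilobase on a log axis for each gene and library (colours as on the left) by exon union or longest transcript, which change the place of Grin1.

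Among all tested genes, those whose pattern over the 5 libraries was most like that of the widest-ranging members were sought by the root mean square difference of centred log2 CPM. For Grin2d they were Rpl17-ps4 (0.03), Mvd (0.10) and Rps6ka2 (0.10). Rpl17-ps4 is a ribosomal protein pseudogene with a median of 12 counts that can share reads with its parent gene, so its value is uncertain. Mvd, an enzyme of the mevalonate pathway, had 13.8, 13.5, 28.1, 21.9 and 9.80 CPM from the control to 8 h, and Rps6ka2, a ribosomal S6 kinase gene, had 70.8, 71.2, 121, 99.5 and 44.3. Like Grin2d, both were highest in the 4 h libraries and lowest at 8 h, which follows from how they were picked. The Grin2d pattern itself rests on 25 to 68 counts a library. For Grin2a the nearest were Pkig (0.03), Gfm2 (0.03) and 4933421O10Rik (0.03), and 326 of 19768 tested genes lay within 0.1 of it.

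Other ionotropic glutamate receptor genes gave a frame for these values. None of the 4 AMPA receptor genes was past 1.5-fold at any time, and none of the 5 kainate receptor genes was at 1 h or 4 h. Gria1, the AMPA receptor gene with the highest level per kilobase of exon, had 916 CPM in the control, 961 at 1 h, 822 and 907 in the 4 h libraries and 895 at 8 h. Gria2, whose edited product blocks calcium entry, had 1206, 1257, 1118, 1105 and 989.9 CPM, with the lowest value at 8 h, where Grin2a and Grin2b had their highest. Gria3 had 195, 217, 214, 188 and 184 CPM, and Gria4 had 93.9, 98.7, 100.3, 72.6 and 68.0. The AMPA genes had median log2 fold changes of 0.07, -0.10 and -0.19 at 1, 4 and 8 h.

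Kainate receptors are bound by the injected agonist itself. Grik4, also a marker of CA3 neurons, had 46.3 CPM in the control, 40.9 at 1 h, 30.4 and 37.8 in the 4 h libraries and 81.6 at 8 h, the only one of the 5 past 1.5-fold, at 8 h. Grik3 had 49.0, 49.4, 36.5, 32.3 and 47.2 CPM, and like Grin3a was lower in both 4 h libraries than in the others. Grik2 had 105, 107, 100.3, 72.6 and 81.8 CPM, Grik5 62.8, 63.1, 51.8, 53.5 and 58.6, and Grik1 18.0, 18.8, 21.7, 18.2 and 13.1. The kainate medians were 0.01, -0.28 and -0.10 on the log2 scale. No gene of either family passed the adjusted threshold of the edgeR quasi-likelihood test, and the difference between the families was not tested.

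The partners of the receptor were taken from 6 lists with 73 genes, of which 71 were tested. By the edgeR test 0 of them were called at 1, 4 or 8 h. Past 1.5-fold there were 1 higher and 0 lower at 1 h, 6 higher and 4 lower at 4 h, and 4 higher and 10 lower at 8 h. As shares of the 71 genes these were 1.41% and 0% at 1 h, beside 10.6% and 8.82% of all tested genes. At 4 h they were 8.45% and 5.63%, beside 9.8% and 6.23%, and at 8 h 5.63% and 14.1%, beside 13.9% and 8.7%. These differences from the background were not tested, and the background was not matched to the lists for count level. Their median log2 fold changes were 0.00, -0.02 and -0.07, beside -0.01, 0.01 and 0.01 over all tested genes.

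Scaffold genes, 17 in number, link the receptor to the postsynaptic density. Homer1, whose short activity-induced form uncouples such scaffolds, had 217 CPM in the control, 1332 at 1 h, 3759.9 and 1348 in libraries 1 and 2 at 4 h and 306 at 8 h. It was high in the 1 h and both 4 h libraries, with a 4 h log2 fold change of 3.56 (SE 0.68) and a Benjamini-Hochberg adjusted p of 0.259 in edgeR's quasi-likelihood test. Dlgap2 had 44.2, 55.6, 112, 73.0 and 79.6 CPM, and Nefl, a neurofilament gene, 538, 725, 994, 733 and 526. By contrast Dlg4, which encodes the main scaffold PSD-95, had 335, 327, 305, 315 and 304 CPM, a narrower span than that of Grin1. Homer1 and Dlgap2 were past 1.5-fold higher at 4 h. At 8 h Dlgap2 was past 1.5-fold above the control and Akap5 and Actn2 as far below it.

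Of 15 kinase and phosphatase genes, Fyn was past 1.5-fold higher at 4 h. Fyn, a Src family kinase that phosphorylates GluN2 tails, had 101 CPM in the control, 101 at 1 h, 245 and 175 in the 4 h libraries and 116 at 8 h. Csnk2a2, a catalytic subunit of casein kinase 2, had 45.1, 40.1, 87.4, 62.5 and 49.2 CPM. Camk2g had 173, 194, 126, 113 and 106 CPM, lower in both 4 h libraries and at 8 h, when Camk2d, with 37.4 CPM against 76.0 in the control, was also past 1.5-fold. Camk2a, the major partner of GluN2B, had 1434, 1434, 1217, 1346 and 1292 CPM, without reaching that fold.

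Genes for the supply of glycine and D-serine numbered 10, and 0 of the 8 tested were past 1.5-fold at 1 h or 4 h. Their 4 h log2 fold changes included 0.44 (SE 0.25) for Psph, a serine synthesis enzyme, -0.34 (SE 0.17) for Srr, the racemase that makes D-serine, and 0.21 (SE 0.19) for Psat1. None of the 3 passed the edgeR quasi-likelihood test, with Benjamini-Hochberg adjusted p of 0.539, 0.506 and 0.683. Phgdh, which begins serine synthesis, had 67.5, 66.2, 61.1, 66.9 and 43.4 CPM and was past 1.5-fold lower at 8 h.

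Among 10 downstream signalling genes Rasgrf2, a Ras exchange factor coupled to NMDA receptors, had 123 CPM in the control, 117 at 1 h, 57.2 and 71.1 in the 4 h libraries and 58.6 at 8 h. It was past 1.5-fold lower at 4 h and 8 h, and the 4 h log2 fold change was -0.94 (SE 0.20). Crtc1, a CREB coactivator, had 71.2, 63.8, 40.2, 45.7 and 70.3 CPM and was past 1.5-fold lower at 4 h alone. Nos1ap had 49.8, 55.0, 81.5, 75.2 and 71.8 CPM, and Nos1, the neuronal nitric oxide synthase, 67.8, 59.7, 48.6, 55.8 and 40.7. Past 1.5-fold, Nos1ap was higher at 4 h and Nos1 lower at 8 h.

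Trafficking and surface partners numbered 15. Lin7b, part of the complex that carries GluN2B along dendrites, had 33.4, 32.7, 18.6, 20.9 and 21.4 CPM, and Gipc1 had 32.5, 28.2, 17.4, 20.9 and 24.4. Both were past 1.5-fold lower at 4 h. Neto1, an auxiliary protein of NMDA and kainate receptors, had 103, 86.2, 79.2, 75.5 and 59.6 CPM, lowest at 8 h. Kif17, the motor of that complex, had 17.4, 19.6, 16.2, 18.5 and 33.6 CPM and, with the reelin receptor gene Lrp8, was past 1.5-fold higher at 8 h, when Lin7b and Neto1 were past that fold below the control.

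Of 6 regulators of subunit transcription, Rest and Nrf1 were past 1.5-fold higher at 4 h. Rest, a repressor of neuronal genes that can act on GluN genes, had 10.7 CPM in the control, slightly less at 1 h, 21.2 and 18.8 in the 4 h libraries and 17.4 at 8 h. Nrf1 had 20.3, 19.9, 38.1, 32.1 and 27.1 CPM, and Sp4 had 41.6, 39.7, 61.2, 52.8 and 38.3. These 3 were higher in both 4 h libraries than in the control, and so was Sp1, with 50.3 and 38.4 CPM against 33.4. Sp3, with 86.1 and 79.1 against 80.2, and Tbr1, with 17.9 and 8.98 against 17.9, were not. At 8 h Rest was past 1.5-fold higher and Tbr1 lower. In edgeR's quasi-likelihood test their Benjamini-Hochberg adjusted p at 4 h was 0.355 for Rest, 0.358 for Nrf1 and 0.466 for Sp4.

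**Figure D4:**
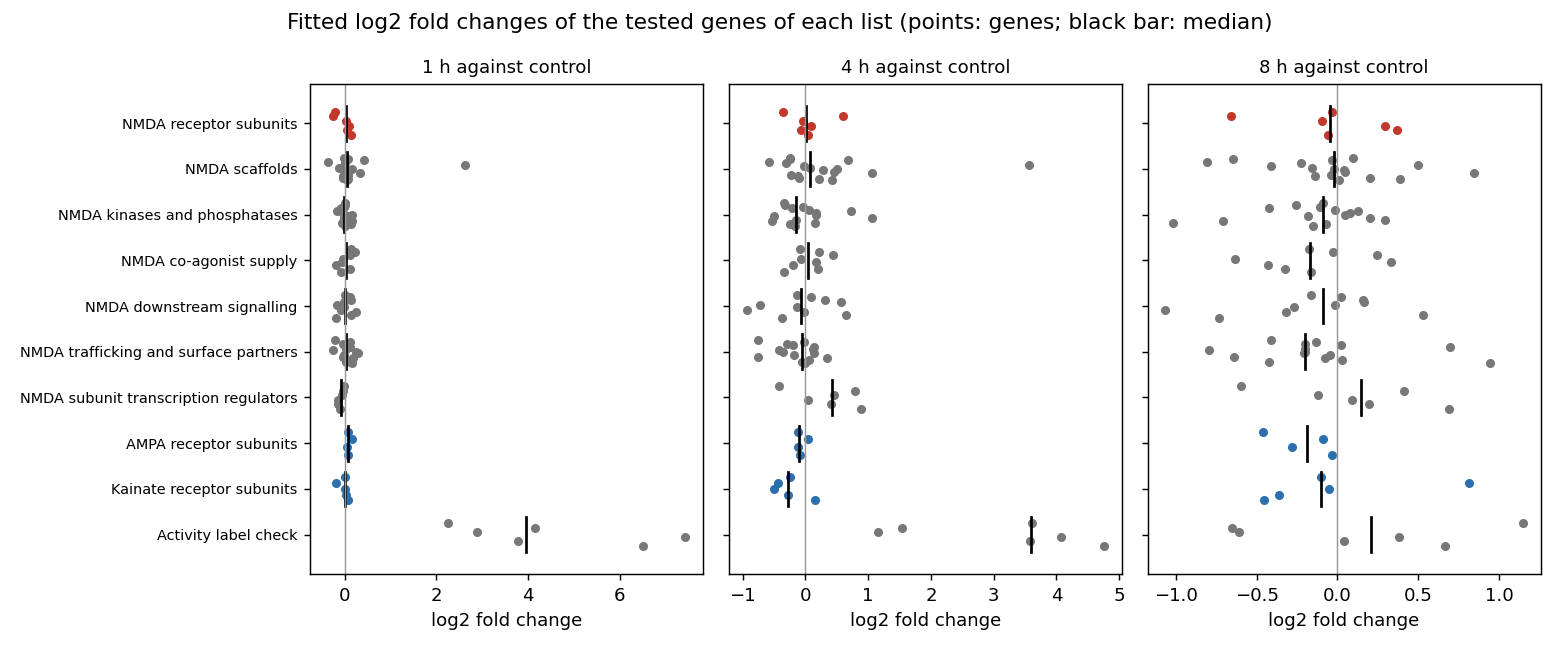
Fitted log2 fold changes (horizontal axes, scaled separately) of the tested genes of each list at 1, 4 and 8 h against the shared control, with the median of each list as a black bar. NMDA receptor genes (top) lie within 1 of 0 at each time, while Homer1 among the scaffolds and the activity-induced genes (bottom) reach far higher at 1 h and 4 h.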

How the data were processed

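Hippocampal RNA of 5 libraries was prepared with a stranded total RNA kit. The authors deposited whole-number counts of reads per gene, without normalization. The submitters' processing notes name STAR 2.5.1b, HTSeq and GRCm38.p4; the sources used here do not give the HTSeq version, strand setting or annotation release. Reads on no gene (24.7% to 33.1% of all reads), ambiguous reads and multiply aligned reads were left out of the library totals. In R 4.3.3, edgeR 4.0.16 was used with filterByExpr (19768 of 55385 genes kept), TMM (factors 0.924 to 1.06) and the quasi-likelihood test over 4 groups, with 1 residual degree of freedom, a biological coefficient of variation of 0.238 and Benjamini-Hochberg adjustment over all tested genes at 0.05. A prior count of 2 was used for log2 fold changes and none for their 95% intervals. A gene was past the fold when its CPM, with a floor of 3 counts, differed from the control by at least 1.5 times, at 4 h in both libraries. Poisson and binomial intervals and the floor cover counting error only. At these depths 3 counts equal 0.151 to 0.178 CPM. Exon lengths and positions are from GENCODE M21 (GRCm38), where all 7 identifiers matched, and promoters from RefSeq (GRCm38.p6).

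Every family member was named. Of each partner list the genes past the threshold were to be named, otherwise up to 3 with the largest log2 fold change at 4 h among genes with at least 50 counts in a library; other named partners, such as Dlg4, Camk2a and genes past the fold at 8 h, were chosen after their values were seen. The members and lists were chosen with earlier results of these data known. The alternatives tried were scaling by median-of-ratios factors or library size, DESeq2 1.42.0, limma-voom (limma 3.58.1), robust empirical Bayes, other filters, a prior count of 0.5, folds of 1.25 and 2, other lengths and leaving out each 4 h library. The tools were tested on simulated data, where edgeR made false calls beyond its nominal rate when dispersions scattered widely between genes. Python 3.11.15 with matplotlib 3.10.9 drew the figures.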

Additional observations from a re-analysis of the deposited data

Results flagged for a closer look

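The share of reads that fell on no annotated gene, which took no part in the comparisons, was above the control value of 24.7% in every kainic acid library. It was 29.0% at 1 h, 33.1% and 25.3% in libraries 1 and 2 at 4 h and 30.9% at 8 h. The part of these differences in the NMDA receptor values was not tested.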

How the results depend on the processing

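No alternative with a test brought a member of the family past the adjusted threshold. Under the alternatives with all 5 libraries there were 191 log2 fold changes of members. DESeq2 gave no adjusted p for Grin2d at 1 h, which is left out. Of the 191, 185 kept their sign and their side of the threshold and 6 turned sign, all of them with scaling by library size alone. The 6 were Grin2a (-0.022) and Grin2c (-0.043) at 1 h, Grin1 (-0.077) and Grin2b (-0.035) at 4 h, and Grin1 (0.037) and Grin2c (0.092) at 8 h against 4 h. That scaling moved the median of all genes by -0.07 at 1 h and by -0.12 at 4 h against the control. At 8 h against 4 h it moved the median by 0.14. Of 24 further values with either 4 h library left out, 1 turned sign, Grin2b at 4 h without library 1 (-0.05). The lowest adjusted p of a member under any alternative was 0.267.

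The numbers of genes called at 1 h, 4 h, 8 h and 8 h against 4 h (0, 1, 0 and 0) moved far more. They were 57, 237, 22 and 120 with library size alone, 56, 238, 33 and 129 with DESeq2 and 285, 1300, 279 and 957 without a filter on low counts. Median-of-ratios factors and limma-voom called 0 at 4 h. Robust empirical Bayes called 1 gene at 1 h, and a minimum of 10 counts in every library called 1 at 1 h and 0 at 4 h. The cause was not tested.

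With the lower of the alternative folds, 1 member was higher and 1 lower at 4 h, beside 17.8% and 15.2% of all tested genes, and at 8 h 1 was higher and 1 lower, beside 23.0% and 18.8%. With a fold of 2, 0 were lower at 8 h, beside 3.18%. Leaving out each 4 h library gave 0 to 1 members higher and 0 to 0 lower at 4 h, where the 1 is Grin2d without library 2. The shares of all tested genes given for 4 h require both libraries and do not apply to these counts. With no share beside them, these counts are not read as a result about the family. Per kilobase of exon the Grin2a share was 55.9% in the control, 55.1% at 1 h, 50.5% and 55.9% in libraries 1 and 2 at 4 h and 57.1% at 8 h, since the exons of Grin2b are longer. With the longest transcript length Grin1 ranked 1, Grin2a 2 and Grin2b 3.

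The limits are those of the design. With 1 library at 1 h, at 8 h and in the control, differences there have no replicate check, and the 4 h pair sets the spread for all. The control was untreated and no library came from vehicle-injected mice. Effects of the injection and of kainic acid therefore cannot be told apart in comparisons with the control. No paired analysis was possible because only the 4 h libraries are numbered in their titles, and no pairing between groups is given.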
